A study of Arabidopsis thaliana with 12 samples.

Results

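The comparison is that of *sig2-2* with WT seedlings after 1 day in continuous red (Rc) light, over the 18862 nuclear loci, of 33078 in all, that reached 1 FPKM in WT, in *sig2-2* or in both, together with the plastid and mitochondrial loci measured in the same libraries. Every locus was taken that passed this level, whatever its difference between the genotypes. WT was *Arabidopsis thaliana* of the Col-0 accession, and *sig2-2* carries a T-DNA insertion in *SIG2*. After cold treatment of the seeds, both genotypes grew on a medium with sucrose under Rc light for 1 day or for 7 days, and RNA was taken from whole seedlings. Each of the 4 conditions had 3 biological replicates, which the authors combined into 1 value per locus in FPKM, a fragment count that is divided by transcript length and by the size of the library. With 1 pooled value per genotype the differences given here were not set against the spread between replicates and carry no p-value, and the depth of the libraries is unknown. A difference is written as log2 of (*sig2-2* + 1)/(WT + 1), which understates the change of low values, and a locus is counted as higher or lower when this reaches 2-fold. RNA came from whole seedlings, so that more cells of a type and more RNA per cell cannot be told apart. *sig2-2* is 1 mutant line, and no complemented line is among these samples.

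SIG2 is a nuclear-encoded sigma factor, a protein that lets the plastid-encoded RNA polymerase (PEP) recognise its promoters. PEP transcribes mainly photosynthesis genes and tRNA genes of the plastid, including the glutamate tRNA from which plants make tetrapyrroles such as chlorophyll, heme and the phytochrome chromophore. A second kind of polymerase, of the phage type and encoded in the nucleus, transcribes mainly housekeeping genes of the plastid. At the end of its first day a seedling is still using the oil and protein of the seed, its radicle has emerged or is about to, and the transcripts that the embryo stored at maturation are being removed.

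*SIG2* itself, which checks the labels, lies on chromosome 1 from 2703336 to 2706845 in the authors' positions and was listed at 66.5 FPKM in WT against 1.31 FPKM in *sig2-2*. The loci on either side were nearly equal in the 2 genotypes, with 17.39 FPKM in WT against 17.51 FPKM in *sig2-2* for AT1G08530 before it, and with 13.7 and 14.5 FPKM for *NPQ1*, the violaxanthin de-epoxidase gene, after it. The difference at this position was thus that of 1 locus. Over all loci the median log2 difference was −0.01, with quartiles at −0.15 and 0.14. A 2-fold higher value in *sig2-2* was found at 550 loci, 2.92% of those compared, and a 2-fold lower value at 216 loci, 1.15%. At 4-fold these were 128 loci, 0.679%, and 65 loci, 0.345%. The 2-fold counts depended on the treatment of low values, with 304 higher and 109 lower loci where both genotypes were at 1 FPKM or more, 195 and 107 with 5 FPKM added in place of 1, and 900 and 375 with 0.1 FPKM added. Of the loci past 2-fold, 93 were listed at 0 in WT and 77 at 0 in *sig2-2*, and they lie on the diagonals in the plot of change against level. Loci whose higher value was from 2 to 5 FPKM were 2-fold higher in 5.31% of cases, against 1.99% of loci from 20 to 100 FPKM. The locus of the highest value, AT2G01021, held 32.6% of the sum over all loci in WT, and 25.5% of that in *sig2-2*.

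**Figure D1:**
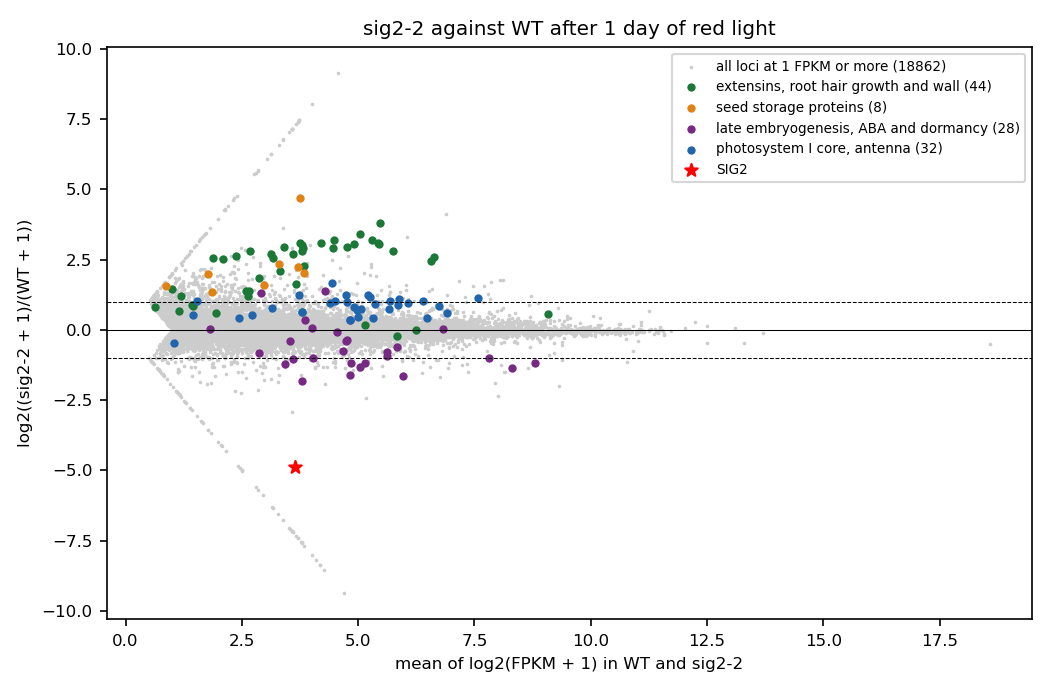
Change against level for the 18862 nuclear loci, with the mean of log2(FPKM + 1) of both genotypes on the horizontal axis and the log2 difference, *sig2-2* over WT, on the vertical axis. Dashed lines mark 2-fold, coloured points are members of the named lists, and the star is *SIG2* at a log2 difference of −4.87.

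Cell wall genes of root hairs made up most of the highest differences. Root hairs are single epidermal cells that grow at their tip, and extensins are hydroxyproline-rich glycoproteins that strengthen the wall of such cells. Of the 12 loci with the highest log2 difference among those at 1 FPKM or more in both genotypes, 8 belonged to the extensin and root hair lists, and of the 40 highest, 23 did. These lists held 56 of the 18862 loci compared. The extensin lists are those of the paper, which singled out group IIb from these same data. Their place among the highest differences was thus known beforehand and is a description, not a separate finding. The root hair lists, too, were chosen with earlier results of these data known, so the same holds for their counts. All 8 extensin genes of group IIb were at least 2-fold higher in *sig2-2*, with differences from 2.52 to 3.81. *EXT13* was listed at 10.9 FPKM in WT against 165 FPKM in *sig2-2*, the highest difference of the group, and *EXT9* at 9.14 and 106 FPKM. *EXT7*, the lowest of the group, was at 0.773 FPKM in WT against 9.20 FPKM in *sig2-2*. TAIR10.1 annotates *EXT11*, at 9.44 and 86.5 FPKM, as a pseudogene. The WT values of the 8 genes ended at 13.7 FPKM, that of *EXT6*, which was at 123 FPKM in *sig2-2*.

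Reads of 55 nt could be shared between some of these genes. In *EXT7*, 54.1% of the 55-nt words of its TAIR10.1 exons also occur in another extensin of the lists, mostly in *EXT8*, where the share was 40.5%, so the values of these 2 genes are uncertain. The shares were 5.07% in *EXT11*, 3.15% in *EXT9* and 2.74% in *EXT6*, and *EXT12* and *EXT13* had no shared word. The differences of the last 2, at 3.21 and 3.81, therefore do not rest on sequence in common with another listed extensin.

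The 12 other extensins of groups I, IIa and IIc were more varied. Only 7 of them reached 1 FPKM in a genotype, of which 5 were 2-fold higher and none was 2-fold lower, and the median difference of the 7 was 2.44. Over all 12, with those near 0 included, the median was 0.30. *EXT2* was at 14.1 FPKM in WT against 124 FPKM in *sig2-2*, and *EXT17* at 19.4 and 140.1 FPKM. *EXT3*, which is needed to position the cell plate in embryos and had the highest level of all extensins listed, was at 448 FPKM in WT against 655 FPKM in *sig2-2*, a difference of 0.55. *EXT21* was slightly lower in *sig2-2*, with 60.5 FPKM in WT against 52.3 FPKM. Extensins as a family thus did not all differ alike.

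Among 29 further genes of root hair growth and wall, each had a higher value in *sig2-2*, where 47.7% of all loci did. Of the 29, 21 were 2-fold higher, and the median was 1.84. These counts describe a list that was chosen with earlier results of these data known. The median was 2.60 over the members at 5 FPKM or more in either genotype, and 1.23 when 5 FPKM was added to each value. The largest difference was that of *RHS13*, at 3.59 FPKM in WT against 38.5 FPKM in *sig2-2*, followed by *PRP1*, a proline-rich wall protein gene, at 5.26 and 52.3 FPKM. *PRP3*, a second proline-rich protein gene of root hairs, was at 8.78 and 75.1 FPKM. The xyloglucan-modifying enzymes *XTH12*, *XTH13* and *XTH14* had differences of 2.71, 2.82 and 3.01. The expansins *EXPA7* and *EXPA18*, which loosen the wall of root hairs, were at 5.47 and 2.44 FPKM in WT and at 30.6 and 21.1 FPKM in *sig2-2*. Genes of the growth machinery differed less. *RBOHC*, the NADPH oxidase of the hair tip, was at 2.74 and 8.71 FPKM, and the proton pump gene *AHA7* at 2.88 and 9.12 FPKM. *CSLD3*, a cellulose synthase-like gene needed for hair elongation, was at 32.0 and 36.7 FPKM, and *SCN1*, a regulator of ROP GTPases, was almost equal, at 74.9 and 75.4 FPKM. These last 2 genes had the highest WT levels of the list and its smallest differences.

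The regulators of root hair cell fate, of which some promote hairs and others hairless cells, had differences of both signs. Of 12 expressed regulators 7 had higher and 5 had lower values, with a median of 0.04, and 2 of them were 2-fold higher. These were *LRL3*, a basic helix-loop-helix (bHLH) gene at 2.54 FPKM in WT against 11.3 FPKM in *sig2-2*, and *RSL4*, a bHLH gene that promotes hair growth, at 5.55 and 12.5 FPKM. *RHD6*, which acts before *RSL4*, was at 9.21 and 11.9 FPKM, and *RSL1*, its close relative, had a difference of 0.52. The 4 expressed bHLH genes that promote hairs thus had higher values in *sig2-2*, with differences from 0.34 to 1.80. They were grouped after their values were seen, and 5 other regulators of the list had lower values. *RSL3* and *RSL5* were not compared, because the reference does not give their identifiers those names. *WER* and *GL2*, which specify hairless cells, were at 33.8 and 7.02 FPKM in WT and at 32.5 and 6.43 FPKM in *sig2-2*. *TRY*, a small MYB inhibitor, had the lowest difference of the list, at 4.36 and 1.87 FPKM. Of 14 expressed markers of other root tissues, 1 was 2-fold higher, *CASP1* of the endodermis, which was listed at 0 in WT and at 1.35 FPKM in *sig2-2*. The regulators of the root meristem *PLT1* and *PLT2* were at 2.76 and 2.88 FPKM in WT and at 2.60 and 2.51 FPKM in *sig2-2*. Of the markers taken to define each tissue, 7 of 8 for root hairs were 2-fold higher, with summed levels of 39.8 FPKM in WT against 194 FPKM in *sig2-2*, against 0 of 6 for root cap and meristem, with sums of 14.4 and 17.7 FPKM. These root markers are all members of the lists above, so they count the same values again. *SCN1* and *CSLD3*, hair genes that differed little, are not among them. The 7 endodermis markers all had higher values in *sig2-2*, 1 of them 2-fold, with sums of 4.80 and 8.25 FPKM, and 4 of them were listed at 0 in WT. The part of seedling stage or of the number of hair cells in these values was not tested.

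**Figure D2:**
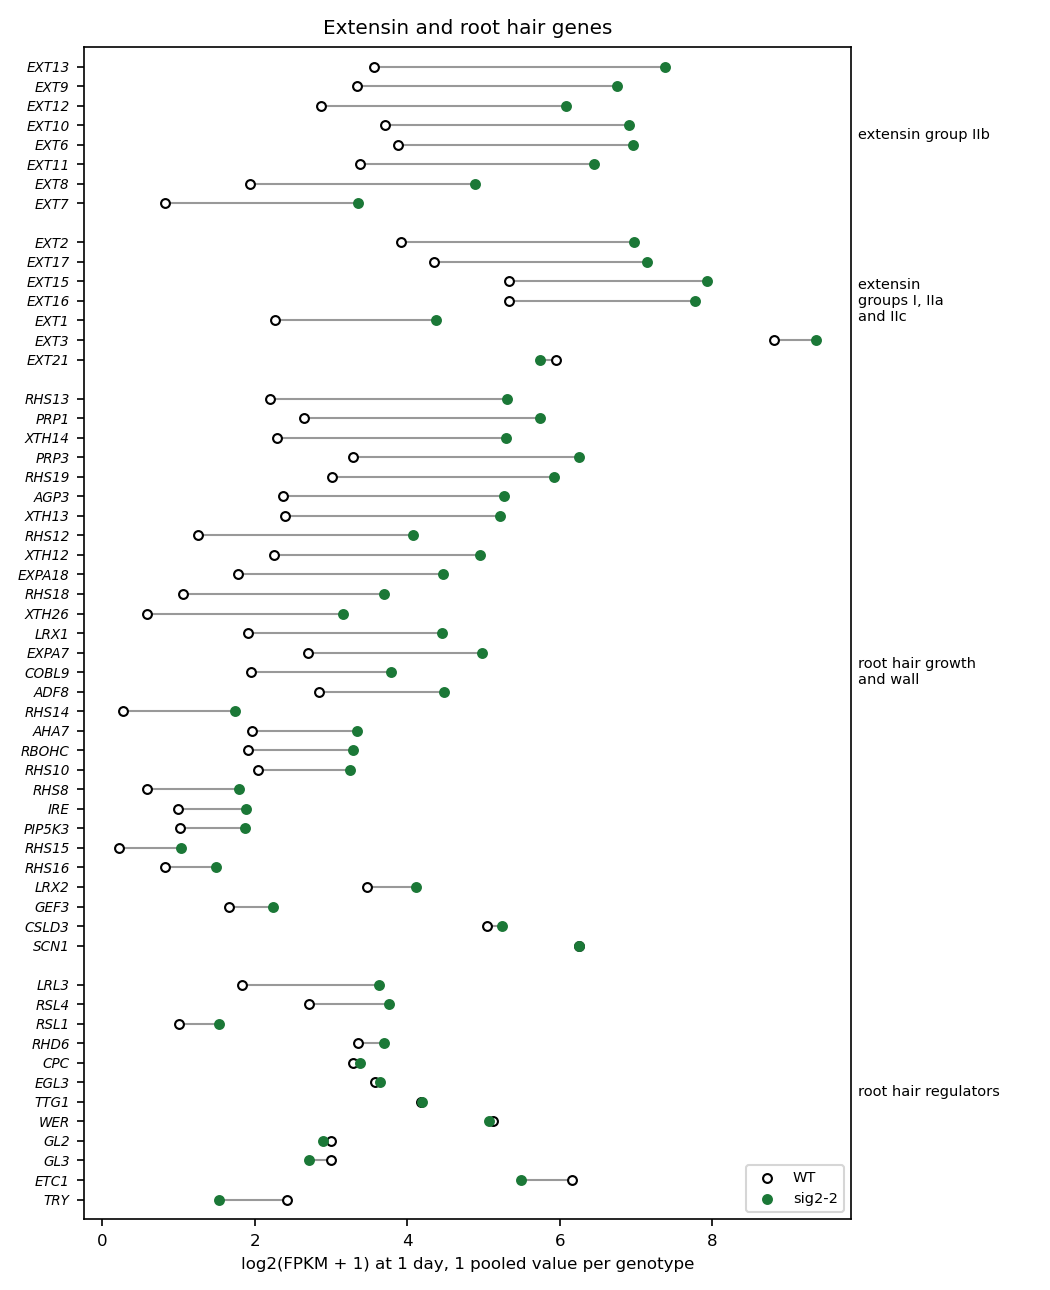
Values of extensin and root hair genes after 1 day, as log2(FPKM + 1) on the horizontal axis, with 1 pooled value for WT (open) and 1 for *sig2-2* (filled) joined by a line, sorted by the difference within each list. The lines are long and point to higher values for the wall genes of hairs, such as *EXT13* at 3.81, and are short for *WER*, *GL2* and *SCN1*.

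The promoters of *EXT13*, the extensin with the highest difference, and of *EXPA7*, a gene expressed in root hairs, are shown because both genes were higher in *sig2-2*. Each covers 250 bases before and 50 bases after the annotated start in TAIR10.1, from the RefSeq sequence, 5′ to 3′ on the gene's strand, at chr5:13433901-13434200 and chr1:4276255-4276554, both on the plus strand. Capitals mark the letters ACGTG on either strand in *EXT13* and the root hair element, a longer motif of root hair promoters whose end resembles those letters, in *EXPA7*, where it begins at position -78 from the start.
EXT13: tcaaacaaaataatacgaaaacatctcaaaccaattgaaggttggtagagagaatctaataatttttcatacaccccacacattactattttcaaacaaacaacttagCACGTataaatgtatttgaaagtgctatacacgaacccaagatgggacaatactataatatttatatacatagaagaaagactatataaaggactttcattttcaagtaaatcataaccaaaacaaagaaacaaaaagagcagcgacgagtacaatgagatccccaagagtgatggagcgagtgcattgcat
EXPA7: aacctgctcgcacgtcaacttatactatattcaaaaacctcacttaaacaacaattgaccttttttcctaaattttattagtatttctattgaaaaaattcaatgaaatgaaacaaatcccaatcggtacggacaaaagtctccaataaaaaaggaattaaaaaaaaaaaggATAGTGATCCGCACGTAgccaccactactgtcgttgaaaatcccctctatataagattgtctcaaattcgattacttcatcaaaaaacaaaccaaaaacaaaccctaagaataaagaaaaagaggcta
The root hair element was found in 10 of 29 promoters of root hair growth and wall genes and in 163 of 18734 promoters of expressed loci, 0.87%. The element is known from root hair promoters, so its larger share in this list is a description, not a separate finding. Of the 8 promoters of group IIb extensins 0 held the element, whereas all 8 held ACGTG on either strand, which 27.7% of all promoters did. ACGTG also lies within the G-box, CACGTG, which none of the 8 held and 8.95% of all promoters did. A match only describes these letters in a window of the stated length and shows neither a bound site nor a cause.

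Other families of wall proteins, taken by name from the annotation, held members with like differences, some of them already counted in the lists above. Over all loci 2.92% were 2-fold higher and 1.15% were 2-fold lower. Of 37 expressed genes annotated as members of the peroxidase superfamily, 13 were 2-fold higher and none was 2-fold lower, led by AT3G49960 at 7.13 FPKM in WT against 62.4 FPKM in *sig2-2*. Of 40 arabinogalactan proteins, 8 were 2-fold higher and none lower, with *AGP3*, which is also in the root hair list, at 4.15 and 37.4 FPKM and *FLA6* at 1.23 and 14.8 FPKM. The family of XTH genes had 5 of 23 members 2-fold higher, 4 of which are in the root hair list, and its median was 0.07. The alpha expansins had 4 of 18 members 2-fold higher and 1 lower, with a median of 0.28. The higher ones include *EXPA7* and *EXPA18* of the root hair list. AT5G57625, a gene of the cysteine-rich secretory protein family, was at 1.94 and 35.8 FPKM, and *FTM1*, which encodes a stearoyl-ACP desaturase, at 19.9 and 207 FPKM. Both were among the 12 highest differences.

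At 7 days, in libraries that share no sample with those of 1 day, genes of the extensin and root hair lists were more often 2-fold lower in *sig2-2* than 2-fold higher. Of the 56 genes of the extensin and root hair lists expressed at 1 day, 36 were 2-fold higher and 0 were 2-fold lower at 1 day, and of the 44 that were at 1 FPKM or more at 7 days, 1 was 2-fold higher and 16 were 2-fold lower, where 4.46% and 3.87% of all loci were. In 7-day seedlings *EXT13* had 16.9 FPKM in WT but 3.56 FPKM in the mutant, and *RHS19* at 7.16 and 1.34 FPKM. The exception at 7 days was *EXT1*, an extensin of growing organs, at 164 and 622 FPKM, which was also higher in *sig2-2* at 1 day, at 3.80 and 19.7 FPKM. The difference between the ages has no test, because each value is a pool.

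Transcripts of seed storage proteins were higher in *sig2-2*. These are the 2S albumins (SESA) and 12S cruciferins, made in the embryo as it matures and broken down after germination. All 8 genes were 2-fold higher, where 2.92% of all loci were. Their median was 2.00, or 1.31 when 5 FPKM was added to each value, and their summed level was 21.7 FPKM in WT against 169 FPKM in *sig2-2*. *SESA3* had the highest difference of all loci at 1 FPKM or more in both genotypes, with 1.63 and 67.2 FPKM. The other albumins ranged from 0.724 to 5.04 FPKM in WT and from 4.79 to 27.3 FPKM in *sig2-2*. The cruciferin *CRA1* was at 6.05 and 27.7 FPKM, *CRU3* at 3.37 and 21.1 FPKM, and *CRU2* at 0.0671 and 2.13 FPKM. At 7 days no storage gene exceeded 1.22 FPKM in either genotype. A wider set of 21 expressed loci annotated as cupins or storage albumins, which holds *CRA1* and the 5 albumins but also cupins of other roles, had 15 higher and 6 lower values, 7 and 2 of them past 2-fold, and a median of 0.25. The genes of oil body proteins had both signs. Of 7 genes *OLEO4* and *OLEO1* were 2-fold higher, at 0.615 and 4.64 FPKM in WT and 4.21 and 10.5 FPKM in *sig2-2*, while *OLEO2* was at 26.7 and 16.1 FPKM and *OLEO3* at 45.8 and 39.2 FPKM.

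The promoter of *SESA3*, the gene of the highest difference, is shown with the RY core CATGCA of seed promoters in capitals, on either strand, where overlapping matches run together. It lies at chr4:13611546-13611845 on the plus strand in TAIR10.1.
SESA3: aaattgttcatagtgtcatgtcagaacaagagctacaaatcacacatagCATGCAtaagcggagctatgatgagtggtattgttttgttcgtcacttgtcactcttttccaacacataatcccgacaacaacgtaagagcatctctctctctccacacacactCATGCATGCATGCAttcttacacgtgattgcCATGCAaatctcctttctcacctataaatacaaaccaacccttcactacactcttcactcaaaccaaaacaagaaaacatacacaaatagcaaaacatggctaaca
CATGCA was found in 7 of 8 promoters of storage protein genes and in 7 of 7 of oil body protein genes, against 8.44% of all promoters. The oil body genes hold it although their differences had both signs.

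Late embryogenesis abundant (LEA) genes, whose proteins protect the drying embryo, lay mostly on the other side. Of 16 genes 6 were 2-fold lower and 2 were 2-fold higher, with a median of −0.90. The lowest difference of the list was that of *LTI78* (also *RD29A*), annotated not as an LEA protein but as responsive to low temperature and desiccation. It was at 24.9 FPKM in WT against 6.33 FPKM in *sig2-2*, and *ECP63* was at 109 and 34.1 FPKM. *EM1*, an LEA gene of late seed maturation, was at 48.4 and 15.4 FPKM. *LEA18* had the highest level of the list, at 670 and 297 FPKM. The dehydrin gene *RAB18*, at 11.2 and 30.8 FPKM, and *M17*, at 3.77 and 10.8 FPKM, went the other way. Of the 60 expressed loci with late embryogenesis in their annotated product, several of which are also in the list of 16, 12 were 2-fold lower, 5 were 2-fold higher and 25 had a higher value, with a median of −0.24. In the wider set both counts were thus a larger share than the 1.15% and 2.92% over all loci. AT3G02480 was at 2586 FPKM in WT against 1182 FPKM in *sig2-2*, and AT3G15670 at 646 and 248 FPKM.

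Genes of abscisic acid (ABA) and dormancy were lower as well. ABA holds the mature seed dormant, and gibberellin counters it. Of 12 expressed genes 10 had a lower value in *sig2-2* and 4 were 2-fold lower, with a median of −0.78. Over all loci 52.3% had a lower value and 1.15% were 2-fold lower. *SOM*, a zinc-finger gene that represses germination, was at 50.8 FPKM in WT against 19.8 FPKM in *sig2-2*, the lowest difference of the list. *ABI5*, a bZIP factor that activates LEA genes such as *EM1*, was at 52.7 and 22.7 FPKM. *ABI3*, a factor that activates both storage protein and LEA genes, was at 64.1 and 36.5 FPKM, and *ABI4* at 68.9 and 45.2 FPKM. *RGL2*, the DELLA repressor of germination, was at 67.3 and 34.4 FPKM. *CYP707A2*, which breaks ABA down in imbibed seeds, was also lower, at 15.4 and 6.09 FPKM. The synthesis gene *ABA1* was at 14.7 and 15.5 FPKM. Between the same libraries the 8 storage protein genes, at low levels, were thus all higher in *sig2-2*. Of the 16 LEA genes, mostly at higher levels, 11 had lower and 5 had higher values.

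**Figure D3:**
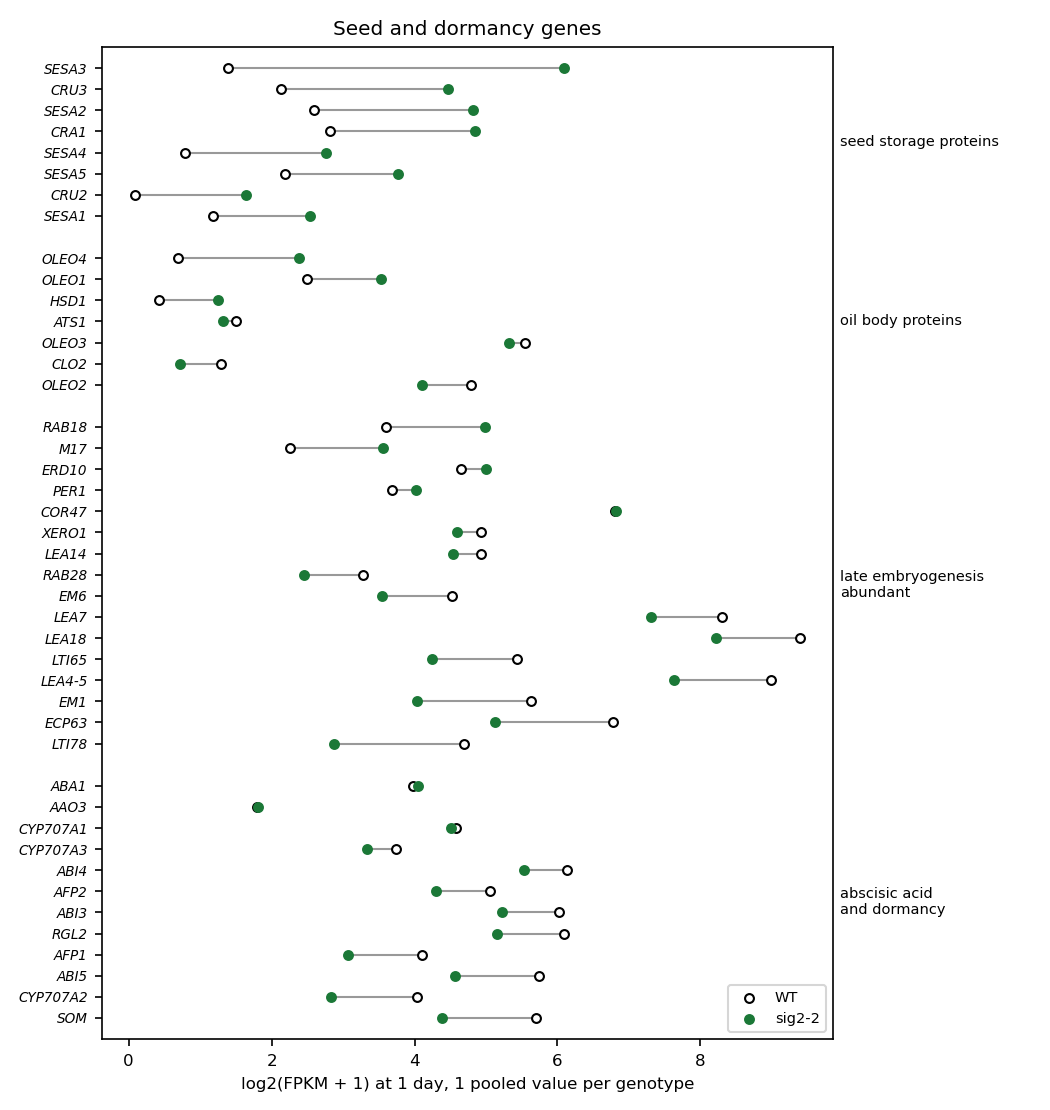
Values of seed and dormancy genes after 1 day, as log2(FPKM + 1), with 1 pooled value for WT (open) and 1 for *sig2-2* (filled) joined by a line. All 8 storage protein genes lie higher in *sig2-2*, and 10 of 12 genes of ABA and dormancy lie lower.

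The promoter of *EM1* is shown because it holds the core ACGTG of ABA-responsive elements, in capitals, at positions -116 and -63 from the annotated start, on opposite strands. It lies at chr3:19214472-19214771 on the plus strand in TAIR10.1.
EM1: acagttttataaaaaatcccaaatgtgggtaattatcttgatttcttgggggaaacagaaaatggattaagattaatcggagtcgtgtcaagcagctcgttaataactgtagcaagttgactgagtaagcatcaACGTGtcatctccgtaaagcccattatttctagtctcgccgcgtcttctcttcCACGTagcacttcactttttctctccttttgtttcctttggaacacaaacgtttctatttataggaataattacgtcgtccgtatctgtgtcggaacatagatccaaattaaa
ACGTG was found in 12 of 16 promoters of the LEA genes and in 6 of 12 of those of ABA and dormancy genes, against 27.7% of all promoters. It was also found in 6 of 8 promoters of storage protein genes, so that it did not separate the lower genes from the higher ones.

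Genes of the endosperm and of germination had no common direction, with a median of 0.03 over 15 expressed genes. *EPR1*, an extensin-like gene of the endosperm, was at 27.4 FPKM in WT against 489.9 FPKM in *sig2-2*, while *EXPA2*, an expansin of the same tissue, was at 244 and 106 FPKM. *CP1*, which encodes a cysteine protease and had the highest level in the list, was at 1668 and 1623 FPKM. The gibberellin synthesis genes *GA3OX1* and *GA3OX2* were at 20.5 and 67.6 FPKM in WT and at 25.5 and 69.1 FPKM in *sig2-2*. None of the 17 genes that turn seed oil into sugar was past 2-fold, with a median of 0.07. The isocitrate lyase gene *ICL* was at 4368 and 5310 FPKM and the malate synthase gene *MLS* at 1830 and 2026 FPKM. The endosperm marker *ZOU* and the seed coat marker *BAN* were listed at 0 in both genotypes. The part of germination timing in the values of seed genes was not tested.

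Nuclear photosynthesis genes were higher in *sig2-2* at this age. All 12 genes of the photosystem I core had higher values, 4 of them 2-fold, with a median of 0.91. Over all loci 47.7% had higher values and 2.92% were 2-fold higher. *PSAK*, which encodes a small subunit next to the antenna, was at 11.0 FPKM in WT against 37.5 FPKM in *sig2-2*, and *PSAL* at 23.0 and 56.5 FPKM. The lowest difference was that of *PSAD-1*, at 95.8 and 148 FPKM, which was the most abundant of the 12. Of 20 antenna genes 19 had higher values and 7 were 2-fold higher, with a median of 0.79. *LHCB1.1* was at 7.59 and 19.5 FPKM and *LHCB1.3*, the most abundant, at 128 and 281 FPKM. *LHCB2.4* alone was lower, at 1.44 and 0.745 FPKM. All 13 expressed nuclear genes of photosystem II were higher, with a median of 0.48, and 3 of them passed 2-fold. *PSBO1*, of the oxygen-evolving complex, was at 45.1 and 97.6 FPKM, whereas *NPQ4*, of energy dissipation, was at 182 and 236 FPKM.

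The promoter of *PSAK*, the photosystem gene of the highest difference, is shown with the I-box core GATAAG of light-regulated promoters in capitals, which reads on the opposite strand at position -67. It lies at chr1:10721933-10722232 on the plus strand in TAIR10.1.
PSAK: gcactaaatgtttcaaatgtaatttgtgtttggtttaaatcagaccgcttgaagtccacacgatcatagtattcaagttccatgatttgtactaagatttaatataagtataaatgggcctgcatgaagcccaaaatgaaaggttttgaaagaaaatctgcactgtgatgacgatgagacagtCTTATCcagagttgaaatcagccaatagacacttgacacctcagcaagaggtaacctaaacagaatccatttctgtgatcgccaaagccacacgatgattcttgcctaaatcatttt
GATAAG was found in 8 of 12 promoters of photosystem I core genes and in 6 of 20 of antenna genes, against 14.6% of all promoters and 13.7% of those of the loci that were 2-fold higher.

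Most genes of carbon fixation and electron transport had higher values as well. Of 19 expressed Calvin cycle genes 18 had higher values and 2 were 2-fold higher, with a median of 0.65, where 47.7% and 2.92% of all loci were. *RCA*, the activase of Rubisco, was at 57.1 FPKM in WT against 158 FPKM in *sig2-2*, and *PRK*, the phosphoribulokinase, at 30.8 and 63.5 FPKM. The small subunit gene *RBCS1A* was at 1942 and 3076 FPKM, but its relative *RBCS2B* was at 688 and 501 FPKM, the only value of the list that was lower. Reads can be shared between such close copies, so the single values of *RBCS* and *LHCB1* genes are uncertain. All 13 genes of electron carriers and the ATP synthase were higher, with a median of 0.36, and *FNR1*, a ferredoxin reductase, was the 1 that passed 2-fold, at 29.1 and 59.7 FPKM. By 7 days the same lists had medians of −0.45 for the photosystem I core, −0.37 for the Calvin cycle, −0.39 for photosystem II, −0.27 for the electron carriers and −0.14 for the antenna, whose summed level was higher in *sig2-2*, at 59678 and 80827 FPKM. The summed levels of these lists were far higher at 7 days in both genotypes.

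Genes of tetrapyrrole synthesis, for which the plastid glutamate tRNA is the starting point, were slightly higher. Of 28 genes 26 had higher values, where 47.7% of all loci did. Only *PORA*, a light-repressed protochlorophyllide reductase, passed 2-fold, at 7.98 FPKM in WT against 17.5 FPKM in *sig2-2*. *GUN5*, the H subunit of Mg-chelatase, was at 27.6 and 45.7 FPKM, *PORB* at 210 and 343 FPKM, and *HEMA1*, the glutamyl-tRNA reductase, at 21.1 and 30.8 FPKM. *FC1*, 1 of the ferrochelatases, had the lowest difference, at 39.2 and 34.1 FPKM. The 14 genes of proteins associated with the plastid RNA polymerase were all higher, by between 0.07 and 0.38, and none reached 2-fold. The other sigma factors had small differences too: *SIG5* was at 1.16 and 2.09 FPKM, *SIG1* at 13.9 and 17.9 FPKM and *SIG6* at 42.8 and 47.9 FPKM. *RPOT3*, a phage-type polymerase of the plastid, was at 41.0 and 46.2 FPKM. *RPOTMP*, a further phage-type polymerase gene, was not compared, because the reference does not give its identifier that name. No other sigma factor gene was therefore past 2-fold.

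**Figure D4:**
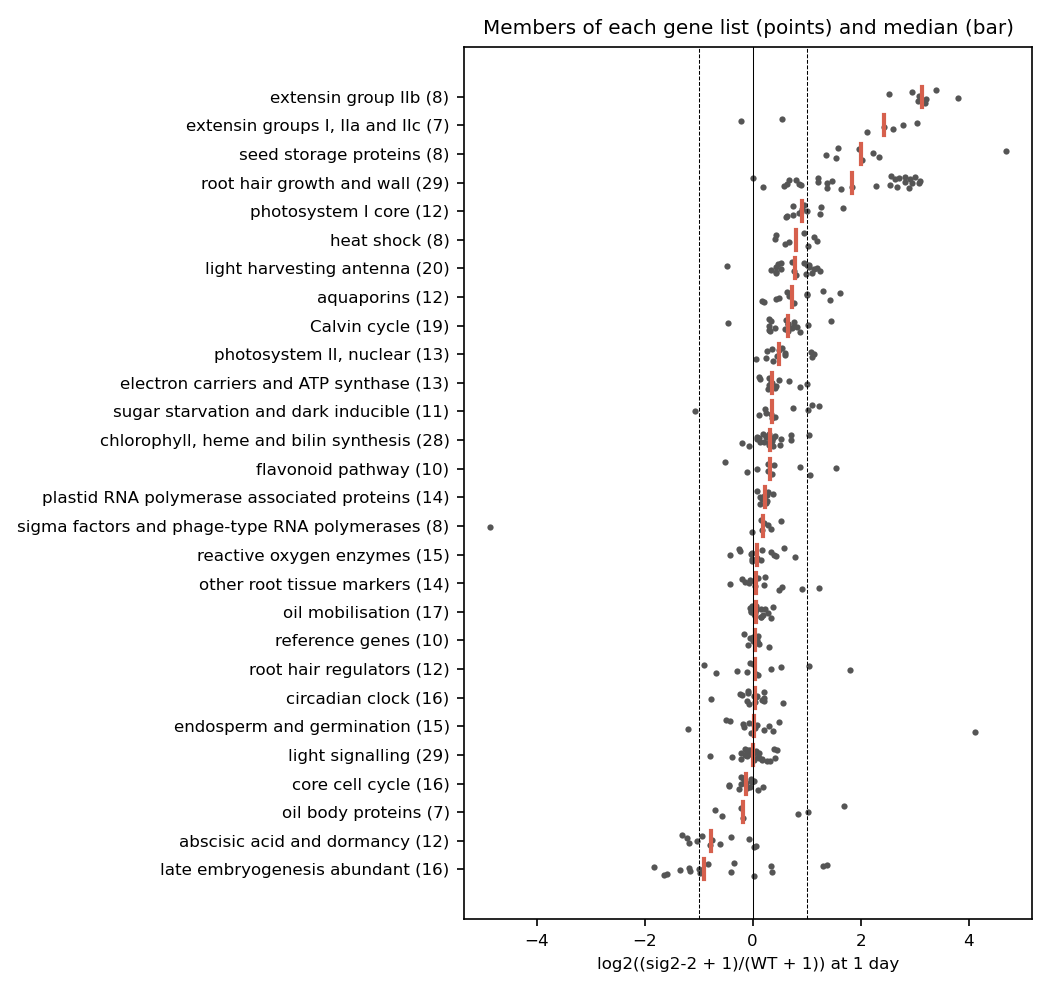
Log2 differences after 1 day for the members of 28 gene lists, with a point for each expressed member, a bar for the list's median and the number of members in parentheses. Extensin lists have the highest medians and LEA genes the lowest, −0.90, and dashed lines mark 2-fold.

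Transcripts of the plastid genome were lower in *sig2-2* at 1 day for genes of either polymerase. Of 130 plastid loci 80 were at 1 FPKM or more in either genotype, of which 73 were lower in *sig2-2*, 25 of them 2-fold, and 7 were higher. The summed level was 4424 FPKM in WT against 1518 FPKM in *sig2-2*. Among 33 photosystem and other genes of the kind that PEP transcribes, 31 were lower, with a median of −0.73, in which 3 loci listed at 0 in 1 genotype are counted. *psbA*, of the D1 protein, was at 10.7 FPKM in WT against 3.43 FPKM in *sig2-2*, and *rbcL* at 22.8 and 15.8 FPKM. *psaJ*, a small subunit of photosystem I, was at 36.3 and 18.1 FPKM. *psbN*, on the strand opposite to its neighbours, was higher, at 16.3 and 34.0 FPKM. The 7 expressed genes among *rpo*, *accD*, *clpP*, *ycf1* and *ycf2*, which the phage-type polymerase mainly transcribes, were all lower too, between −0.75 and −0.34, with *rpoB* at 8.11 and 6.19 FPKM and *accD* at 2.66 and 1.17 FPKM. Of 17 expressed ribosomal protein genes 16 were lower, with a median of −0.58. The *ndh* genes had the smallest median, −0.27, and 3 of 9 were higher, with *ndhE* at 2.98 and 7.01 FPKM.

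The plastid tRNA loci were the least steady. Of 37 such loci 10 were at 1 FPKM or more in either genotype, and 8 of these were listed at 0 in 1 of the genotypes, for example *trnH* at 833 FPKM in WT and 0 in *sig2-2*, and 1 of the loci named *trnG* at 0 in WT and 191 FPKM in *sig2-2*. The median length of the expressed tRNA loci was 73.5 nt, close to the read length of 55 nt. *trnE*, the glutamate tRNA, was listed at 0 in both genotypes. The libraries were made from mRNA, which plastid transcripts with few poly(A) tails enter poorly, so these levels describe only what was captured. Without the tRNA loci, a choice made after their values were seen, 64 of 70 plastid loci were lower, 16 of them 2-fold, and the summed level was 1958 FPKM in WT against 1121 FPKM in *sig2-2*.

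Most mitochondrial transcripts were lower in *sig2-2* as well. Of 141 loci 28 were at 1 FPKM or more in either genotype, of which 23 were lower in *sig2-2*, 3 of them 2-fold, and the median was −0.49. With 0.1 FPKM added in place of 1, 6 loci were 2-fold lower, and among loci at 5 FPKM or more 1 was. The ribosomal RNA locus *rrn26* was at 331 FPKM in WT against 208 FPKM in *sig2-2*, *rrn18* at 208 and 143 FPKM, and the open reading frame *orf107a*, the most abundant, at 823 and 482 FPKM. *nad9*, of respiratory complex I, was at 11.1 and 5.82 FPKM. The plastid genes other than tRNA genes thus had a median of −0.57 and the mitochondrial loci one of −0.49, in the same 2 pools. Among nuclear loci, snoRNAs had a median of −0.68 and tRNAs one of 0.18. The nuclear locus of the highest value, AT2G01021, was at 466700 FPKM in WT against 328100 FPKM in *sig2-2*. The part that the capture of RNA without poly(A) tails has in the plastid, mitochondrial and these nuclear values was not tested. At 7 days 78 of the 80 plastid loci were higher in *sig2-2*, with sums of 2459 FPKM in WT against 19664 FPKM in *sig2-2*, and 25 of the 28 mitochondrial loci were higher.

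**Figure D5:**
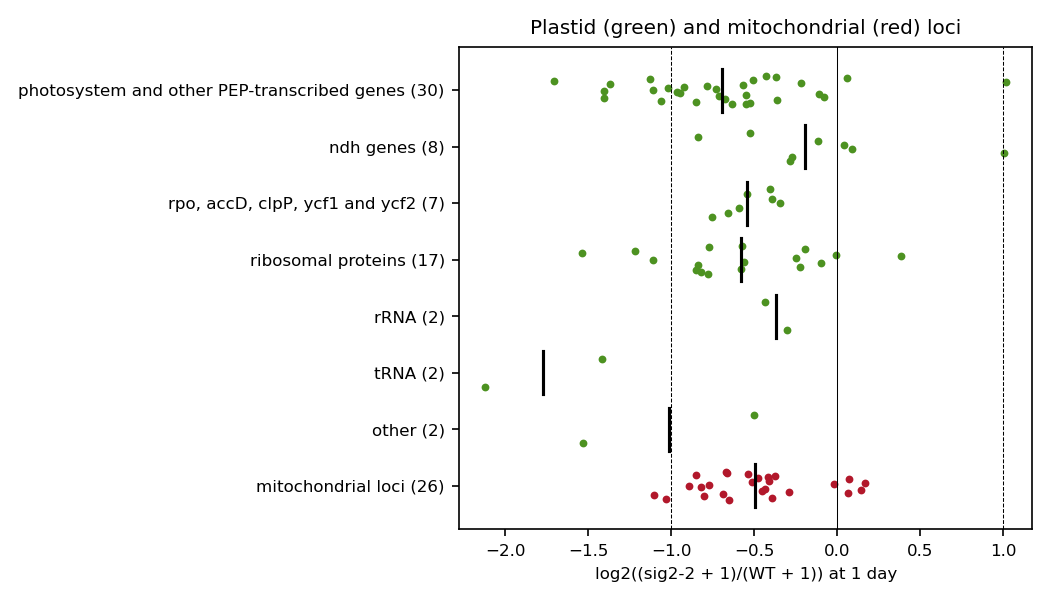
Log2 differences after 1 day for the plastid loci (green) and mitochondrial loci (red) that were at 1 FPKM or more in either genotype and above 0 in both, by kind of gene, with a bar for the median and the number of loci in parentheses. Most points lie between −1 and 0, in the *rpo* group as in the photosystem group, and *psbN* and *ndhE* lie near 1.

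Short RNA loci of the nucleus gave many of the lowest values. Of the 12 loci with the lowest difference among those at 1 FPKM or more in both genotypes, 7 were protein-coding, 3 were small nucleolar RNAs (snoRNAs), 1 was the spliceosomal RNA *U12*, at 32.0 FPKM in WT against 3.36 FPKM in *sig2-2*, and 1, AT5G19729, had no match in TAIR10.1. Of 55 expressed snoRNA loci 21 were 2-fold lower and 10 were 2-fold higher, and 19 were listed at 0 in 1 genotype. Of 41 tRNA loci 39% were 2-fold lower and 43.9% higher, and 30 were listed at 0 in 1 genotype. Among 18110 protein-coding loci 2.69% were 2-fold higher and 0.795% lower. Besides *SIG2*, the protein-coding loci of the lowest values were *NTL8*, a NAC factor that is tethered to membranes, AT1G07500, an uncharacterised gene, at 9.80 and 1.39 FPKM, AT2G43860, a pectin lyase-like gene, AT5G41109, AT3G28899 and *LTI78*.

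Stress, transport and metabolic lists were also compared, where 47.7% of all loci had higher values and 2.92% were 2-fold higher. All 8 expressed heat shock genes had higher values, with a median of 0.81, and 3 were 2-fold higher, among them *HSP70*, at 24.6 FPKM in WT and 2.24-fold higher in *sig2-2*, and *HSFA2*, a heat stress factor, at 1.57 and 4.27 FPKM. The 27 expressed loci annotated as HSP20-like chaperones, none of them in this list, had 15 higher and 12 lower values, 2 of them 2-fold higher, and a median of 0.03. All 12 expressed aquaporins, which are water channels, were higher too, 4 of them 2-fold, with the seed channel *TIP3;1* at 0.805 and 4.55 FPKM and *TIP4;1* at 17.2 and 44.1 FPKM. Of 11 genes of sugar starvation and darkness 3 were 2-fold higher, the sugar transporters *SWEET11* and *SWEET12* and the dark-inducible *SEN1*, at 25.7 and 53.1 FPKM, and *EXL2* was lower, at 87.5 and 41.1 FPKM. In the flavonoid pathway *PAL1*, the first enzyme of phenylpropanoids, was at 9.71 and 30.2 FPKM and *4CL1* at 9.27 and 20.5 FPKM, while the chalcone synthase gene *TT4* was at 147 and 194 FPKM. None of 15 genes of reactive oxygen enzymes was past 2-fold, and the catalase gene *CAT3* had the highest difference, at 210 and 361 FPKM.

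Other lists were close to 0. None of 16 clock genes was past 2-fold, with a median of 0.03, and the lowest was *LHY*, a morning factor, at 12.6 and 6.99 FPKM. None of 29 genes of light signalling was past 2-fold, with a median of 0.01. Among these *PHYB*, the photoreceptor of red light, was at 29.9 and 25.8 FPKM, *HY5* at 36.1 and 35.3 FPKM, and *PIF3* at 42.5 and 58.6 FPKM. *GLK1*, a factor that activates photosynthesis genes, was the lowest, at 22.4 and 12.5 FPKM, although the genes of the antenna and photosystems were higher. None of 303 cytosolic ribosomal protein genes was past 2-fold, with a median of −0.04, and none of 16 core cell cycle genes, 13 of which were slightly lower, with a median of −0.12. The 10 reference genes lay between −0.15 and 0.30, with *PP2AA3* at 57.8 and 58.3 FPKM and *ACT2* at 321 and 397 FPKM.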

How the data were processed

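WT and *sig2-2* seedlings were measured after 1 day and 7 days in Rc light, with 3 biological replicates in each of 4 conditions and 12 samples in all. The authors sequenced mRNA libraries as 55-nt reads and used Cufflinks and Cuffdiff to make the deposited FPKM values, 1 per locus and condition over the 3 replicates. Versions, aligner, annotation and genome build are not given in the sources used here. The deposited tables also hold the authors' log2 ratios, test statistics, p-values and q-values, which were not used. Read depth is unknown, so counting error cannot be given.

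Nuclear loci came from the table of all conditions and organelle loci from the tables of single conditions, which agree at all 33078 nuclear loci. Loci were compared at 1 FPKM or more in either genotype with a pseudocount of 1, and no test was made, because each condition has 1 pooled value. Alternatives were the pseudocount, the filter, the fold, centring, rescaling and the choice of loci. Names and sequences came from TAIR10.1 (RefSeq), where 32150 loci matched by identifier and position, 400 by position over at least 0.8 of their length, and 528 had no match. The members and lists were chosen with earlier results of these data known. Of 447 list entries 438 were kept, where the reference gives the identifier that name or an alias (extensins by identifier), and 435 were found. The genes named are *SIG2* and its neighbours, the 12 highest and 12 lowest differences, and up to 4 members of each list by highest, second highest and lowest difference and by level. Other members were named after their values were seen. Python 3.11.15, numpy 2.4.6, pandas 2.3.3 and matplotlib 3.10.9 were used, and the counts were tested on simulated data.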

Additional observations from a re-analysis of the deposited data

How the results depend on the processing

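With a pseudocount of 0.1, 900 loci were 2-fold higher and 375 lower, and with a pseudocount of 5, 195 and 107. With both genotypes at 1 FPKM or more the counts were 304 and 109, and at 5 FPKM or more in either 336 loci were higher. At 1.5-fold 1197 loci were higher and 647 lower, and at 4-fold 128 and 65. Root hair growth and wall genes had medians of 2.46 and 1.23 with pseudocounts of 0.1 and 5, 2.54 at 1 FPKM or more in both genotypes and 2.60 at 5 FPKM or more. Storage protein genes had a median of 1.31 with a pseudocount of 5, and extensins of groups I, IIa and IIc one of 0.30 with no filter, since members near 0 then enter. The number of mitochondrial loci that were 2-fold lower was 6 with a pseudocount of 0.1 and 1 at 5 FPKM or more, and that of plastid loci was 16 without tRNA loci, a choice made after the data were seen, as was protein-coding loci alone. The other 218 of 224 list medians moved by less than 1.5-fold, but some medians near 0 changed sign. Other root tissue markers were at −0.05 and light signalling at −0.01 both with 1 FPKM in both genotypes and with 5 FPKM in either, and endosperm and germination was at −0.0037 with 1 FPKM in both. Centring, rescaling without AT2G01021 and protein-coding loci alone moved no count by over 1.5-fold. Leaving out replicates and a replicate block were not run, since no replicate columns were used. No paired analysis was possible because each condition has 1 pooled value. The unknown depth limits statements on low values.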
